A study of Rattus norvegicus with 12 samples.

Results

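The genes described here are 10 genes of MHC class I antigen processing and of the immunoproteasome, taken by symbol from the 23526 genes of a rat spinal cord expression table. They are the catalytic immunosubunits Psmb8, Psmb9 and Psmb10, the activator subunits Psme1 and Psme2, the peptide transporter genes Tap1 and Tap2, the loading factor Tapbp, the class I light chain B2m and the transactivator Nlrc5. Each symbol matched 1 entry, and all 10 passed the filter on low counts, among 18714 genes tested. RNA was sequenced from lumbar segments L3 to L5 of Rattus norvegicus in 12 libraries: 3 from sham at day 0, and 3 each from 3, 7 and 14 days after spinal cord injury (SCI). The labels give no strain, age, sex, kind or level of injury, and no sham later than day 0, so time after surgery and injury cannot be told apart. They name replicates and do not say that these were separate animals, so each p-value measures only the spread between these libraries, which may be technical.

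The proteasome is a barrel-shaped protease that cuts proteins into short peptides. Interferon induces alternative catalytic subunits that replace the constitutive ones in newly built particles, giving the immunoproteasome, and an activator ring that caps the barrel. The peptides are carried into the endoplasmic reticulum by the Tap1 and Tap2 transporter, loaded with the help of tapasin onto class I heavy chains paired with B2m, and shown at the cell surface to T cells.

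Stretches of promoters are printed first because most of these genes carry the same short element next to their start. RefSeq promoter windows of build GRCr8, 250 bases before to 50 bases after the start, were found for 9 of the 10 genes and not for Nlrc5. The core of the interferon-stimulated response element, the sequence read by interferon regulatory factors, was searched on both strands as GAAA, any 2 bases and GAAA again. It was present in 7 of the 9 windows, those of Psmb8, Psmb10, Psme2, Tap1, Tap2, Tapbp and B2m, and in 3.92% of 33469 rat windows of the same length. The windows of Psmb9 and Psme1 lacked these letters, as did those of all 3 constitutive catalytic subunits, Psmb5, Psmb6 and Psmb7. The capitals below mark this motif, and in Tap1 also the core of an NF-kB site, searched on both strands as GGG, any 2 bases and TTTCC.
Psmb8, chr20:4657006-4657055, minus strand: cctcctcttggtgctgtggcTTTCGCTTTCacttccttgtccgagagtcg
Psmb10, chr19:50743280-50743385, minus strand: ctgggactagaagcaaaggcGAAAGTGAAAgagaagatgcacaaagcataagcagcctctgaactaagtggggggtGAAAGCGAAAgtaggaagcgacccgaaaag
Psme2, chr15:33052775-33052824, minus strand: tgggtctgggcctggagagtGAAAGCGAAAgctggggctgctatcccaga
Tap1, chr20:4668569-4668684, minus strand: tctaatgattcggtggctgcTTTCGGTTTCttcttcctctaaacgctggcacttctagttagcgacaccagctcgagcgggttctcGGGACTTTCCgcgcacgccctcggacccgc
Tap2, chr20:4652308-4652357, minus strand: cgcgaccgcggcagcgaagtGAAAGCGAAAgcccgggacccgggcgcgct
Tapbp, chr20:4967868-4967923, minus strand: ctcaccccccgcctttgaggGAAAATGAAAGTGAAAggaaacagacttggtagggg
B2m, chr3:129549160-129549209, plus strand: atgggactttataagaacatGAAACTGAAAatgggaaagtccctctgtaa

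The same 10-base word, GAAAGCGAAA, occurred in Psmb10, Psme2 and Tap2, and its reverse complement occurred in Psmb8. Psmb10 held 2 separate copies of the motif and Tapbp held 2 that overlap by 4 bases. The Psmb8 copy began 4 bases before the start, the closest of all, and the B2m copy began 150 bases before it, the farthest. The NF-kB letters were found in Tap1, Tapbp and B2m, 3 of 9 windows, against 1.53% of all windows. The B2m match, GGAAAGTCCC on the opposite strand, lies within the printed stretch and is left in lower case. The Tapbp match lies outside its printed stretch. Letters of the gamma-activated sequence, TTC, any 3 bases and GAA, on both strands, were found in Psmb8 only, 1 of 9 windows, against 8.87% of all windows. Tap1 and Psmb9 are transcribed away from each other, with 456 bases between their starts. The printed Tap1 stretch lies between these 2 starts, but outside the window searched for Psmb9. A match is a description of these letters and not evidence of a bound site. The motifs were chosen after the promoter letters were seen, so the shares beside all windows are descriptions and not a test.

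Library totals ranged from 63010295 to 79072710 counts, so counting error is small beside the differences between libraries. Some libraries stood apart in tissue markers. The summed level of 10 neuron markers was 501 and 389 CPM (counts divided by the library total in units of 1000000) in SCI day 3 replicates 1 and 3, against 6057 to 11145 CPM in the other 10 libraries. Oligodendrocyte markers were high in all 12 libraries, at 28703 to 69518 CPM. Schwann cell markers ranged from 4640 to 39082 CPM within sham alone, with the highest sum in sham replicate 2. Sensory ganglion neuron markers summed to 558 and 996 CPM in SCI day 14 replicates 1 and 2. They summed to 201 CPM in SCI day 14 replicate 3 and 175 to 228 CPM in sham. Erythrocyte markers summed to 9231 CPM in SCI day 7 replicate 1, against 221 to 2058 CPM in the other libraries. Because of the neuron markers, day 3 calls among the 10 genes and in the related lists are also given without SCI day 3 replicates 1 and 3. The closing section also leaves out SCI day 14 replicates 1 and 2 together. In bulk tissue, more cells of a type and more RNA per cell cannot be told apart.

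Across the 10 genes, the mean CPM was lowest in sham for every gene and highest at day 3 for every gene. The order was day 3, day 7, day 14, sham for 9 of the 10 genes, and for B2m day 14 stood above day 7. The order of the days is a description, since no difference between days was called by edgeR, and it reversed in part under other settings. Of 220 values of the 10 genes under alternative settings, 34 had the opposite sign for day 7 against day 3, 16 for day 14 against day 7 and 8 for day 14 against day 3. The plot of CPM by library shows the values that follow.

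**Figure D1:**
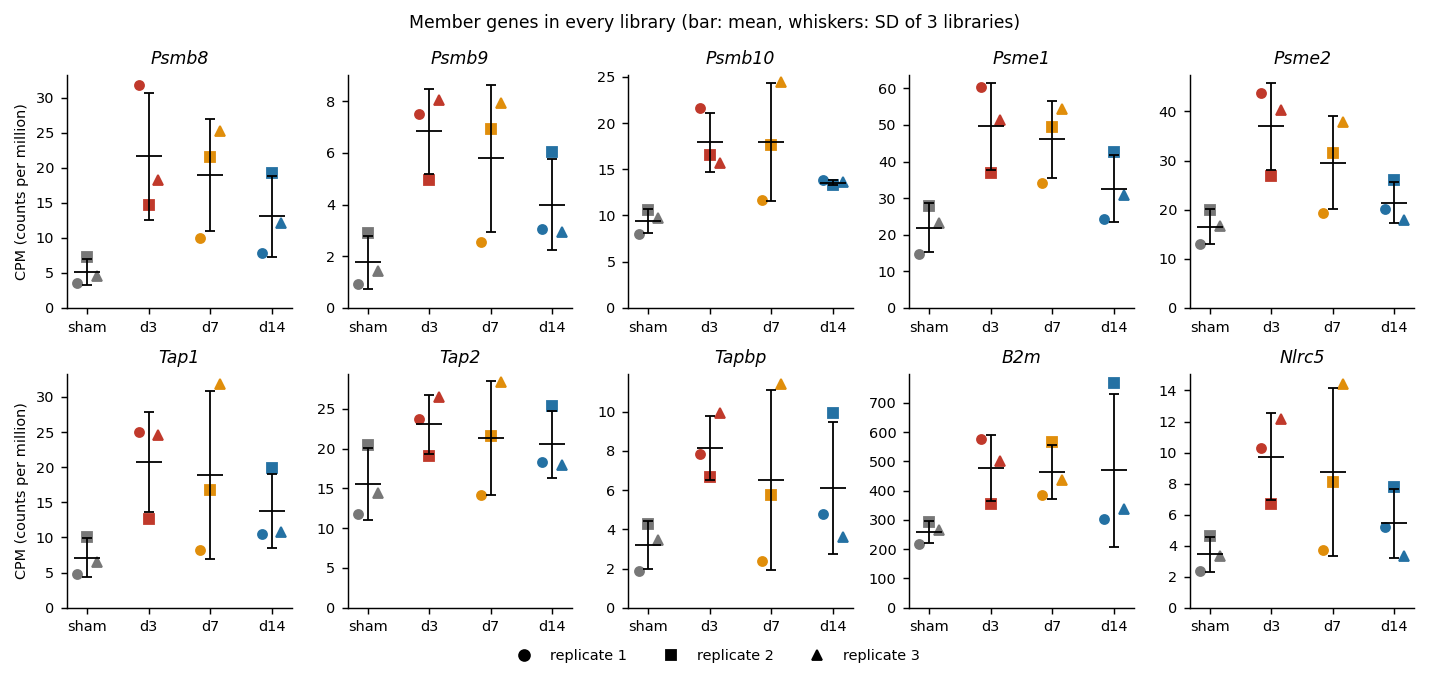
CPM (vertical axis, linear, from 0) of the 10 genes in each of the 12 libraries, by group (sham and days 3, 7 and 14 after SCI), with marker shape for the replicate number, a bar for the mean and whiskers for the SD of 3 libraries. Sham replicate 1 is the lowest of the 12 libraries for all 10 genes, and day 7 spreads widely, with replicate 1 low and replicate 3 high for most genes.

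Psmb8 and Psmb9 gave the largest log2 differences of the 10 genes at day 3. Psmb8 encodes the immunosubunit with chymotrypsin-like activity and lies on chromosome 20. It had 3.58, 7.21 and 4.61 CPM in sham replicates 1 to 3, 31.9, 14.7 and 18.3 CPM at day 3, 10.03, 21.6 and 25.3 CPM at day 7, and 7.83, 19.3 and 12.1 CPM at day 14. All 9 SCI libraries were above the highest sham library, with SCI day 14 replicate 1 only just above it. Psmb8 rose at day 3 by a log2 fold change of 2.04 ± 0.452 (SE, n = 3 and 3; edgeR adjusted p = 0.0378), a 4.10-fold difference. At days 7 and 14 the log2 differences were 1.84 and 1.32, with edgeR adjusted p-values of 0.251 and 0.594.

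Psmb9, beside Tap1 on chromosome 20, encodes the immunosubunit that replaces Psmb6. It had 0.944, 2.92 and 1.43 CPM in sham, 7.49, 4.96 and 8.03 CPM at day 3, 2.56, 6.91 and 7.91 CPM at day 7, and 3.05, 6.02 and 2.94 CPM at day 14. Day 3 and day 14 did not overlap sham, day 14 by a margin of 0.02 CPM, while SCI day 7 replicate 1 lay below sham replicate 2. The log2 difference at day 3 was 1.93 ± 0.523 (SE; edgeR adjusted p = 0.0520), just outside the limit of 0.05. Psmb9 and Tap1 share 856 bases on opposite strands in the table's gene models, and the use of strand in counting is not given, so part of their reads cannot be assigned with certainty.

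Psmb10, on chromosome 19, encodes the immunosubunit that replaces Psmb7. It had 8.05, 10.6 and 9.69 CPM in sham, 21.6, 16.5 and 15.7 CPM at day 3, 11.7, 17.6 and 24.4 CPM at day 7, and 13.8, 13.3 and 13.6 CPM at day 14. None of the 9 SCI libraries overlapped sham, and the day 14 libraries were the closest to each other of any group. The log2 difference at day 3 was 0.88 ± 0.236 (SE; edgeR adjusted p = 0.0505). It was 0.88 again at day 7 and 0.48 at day 14, with edgeR adjusted p-values of 0.273 and 0.697.

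The constitutive counterparts Psmb5, Psmb6 and Psmb7, which hold the matching catalytic positions in the standard proteasome, stayed near their sham levels. Their log2 differences at day 3 were 0.08 for Psmb5, 0.14 for Psmb6 and -0.12 for Psmb7. The 95% intervals reached from -0.16 to 0.33, from -0.19 to 0.47 and from -0.40 to 0.16, so a change of 2-fold lay outside all 3. Psmb7 shares 41293 bases with Nek6 on the opposite strand, and Nek6 itself had a day 3 log2 fold change of 1.65 (edgeR adjusted p = 0.0324), so the value of Psmb7 is uncertain.

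Each immunosubunit was then set against its constitutive counterpart within a library as a ratio of FPKM, which is counts per kilobase of gene model, scaled to the library total. Such a ratio does not depend on how libraries are scaled. Psmb8 was 5.12%, 8.49% and 5.36% of Psmb5 in the sham libraries. It was 36.7%, 15.7% and 22.6% at day 3, 12.7%, 24.4% and 30.9% at day 7, and 11.1%, 24.9% and 15.8% at day 14. All 9 SCI libraries exceeded every sham library, and the largest SCI ratio still left Psmb8 the smaller transcript of the pair. Over the 9 SCI libraries the ratio was 3.27-fold that of sham, a difference of 1.71 on the log2 scale. The two-sided exact permutation p was 0.009091, the smallest that 9 against 3 libraries allow, and 0.01364 after Benjamini-Hochberg adjustment over the 3 ratios.

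The sham libraries averaged a Psmb9 level of 2.41% ± 1.19 (SD, n = 3) of Psmb6. The mean was 8.74% ± 2.94 on day 3, 7.28% ± 3.22 on day 7 and 5.40% ± 2.30 on day 14. The SCI libraries stood 1.56 above sham on the log2 scale, with 7 of 9 above the highest sham library (exact permutation p = 0.02727, adjusted 0.02727). Psmb10 averaged 3.74% ± 0.338 (SD, n = 3) of Psmb7 in the sham libraries, and 7.60% ± 1.52, 7.12% ± 2.99 and 6.08% ± 0.929 on days 3, 7 and 14. This ratio was 0.85 higher on the log2 scale, with 9 of 9 above sham (exact permutation p = 0.009091, adjusted 0.01364). Thus every ratio was higher in the 9 SCI libraries together, while a single day of 3 libraries against 3 cannot reach 0.05 by this test. Without SCI day 3 replicates 1 and 3, the log2 differences were 1.56, 1.38 and 0.77 and the adjusted exact p-values 0.025, 0.05 and 0.025, so the Psmb9 ratio no longer passed. Without sham replicate 1, and likewise without sham replicate 3, no ratio passed, with adjusted exact p-values of 0.05455 for Psmb8 and Psmb10 and 0.1091 for Psmb9, where only 2 sham libraries remained.

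**Figure D2:**
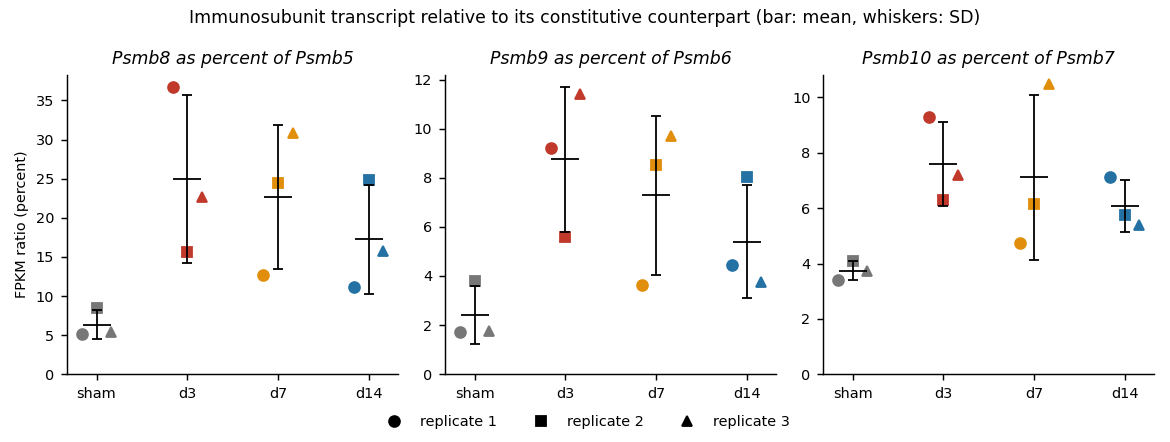
FPKM of each immunosubunit as a percent of its constitutive counterpart (vertical axes, linear, from 0) in each library by group, with marker shape for the replicate, a bar for the mean and whiskers for the SD of 3 libraries. For Psmb8 and Psmb10 all 9 SCI libraries lie above the 3 sham libraries, and for Psmb9 7 of 9 do.

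The activator ring genes Psme1 and Psme2, on chromosome 15, both rose at day 3. Their products together form a cap that opens the barrel. Psme1 had 14.8, 28.0 and 23.1 CPM in sham, 60.4, 36.9 and 51.5 CPM at day 3, 34.3, 49.6 and 54.3 CPM at day 7, and 24.4, 42.5 and 30.9 CPM at day 14. Days 3 and 7 did not overlap sham, and SCI day 14 replicate 1 lay within the sham range. The log2 fold change at day 3 was 1.14 ± 0.287 (SE; edgeR adjusted p = 0.0448).

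Psme2 had 13.0, 20.03 and 16.7 CPM in sham, 43.7, 26.9 and 40.4 CPM at day 3, 19.3, 31.4 and 37.9 CPM at day 7, and 20.2, 26.0 and 17.997 CPM at day 14. Only day 3 stood clear of sham, since SCI day 7 replicate 1 and SCI day 14 replicate 3 fell below sham replicate 2. The log2 fold change at day 3 was 1.13 ± 0.277 (SE; edgeR adjusted p = 0.0436), and at day 14 the log2 difference was 0.33 (edgeR adjusted p = 0.884). Of the other proteasome caps and inhibitors none of 3 was called. Psme3 gave a day 3 log2 difference of 0.30, Psme4 one of 0.31 and Psmf1 one of 0.06.

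Neither transporter gene was called by edgeR on any day, while DESeq2 and voom called Tap1 at day 3. Tap1 and Tap2, both on chromosome 20, encode the partners of the peptide pump. Tap1 had 4.77, 10.1 and 6.51 CPM in sham, 25.0, 12.6 and 24.6 CPM at day 3, 8.18, 16.8 and 31.9 CPM at day 7, and 10.6, 19.8 and 10.8 CPM at day 14. Days 3 and 14 lay above every sham library, while at day 7 replicate 1 lay inside the sham range and replicate 3 was the highest of all 12. Its log2 differences were 1.51, 1.36 and 0.91, none of which passed (edgeR adjusted p = 0.0741, 0.400 and 0.755). Without SCI day 7 replicate 3 the day 7 value of Tap1 was 0.75, and without SCI day 14 replicate 2 the day 14 value was 0.53.

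Tap2 had 11.8, 20.5 and 14.4 CPM in sham, 23.7, 19.1 and 26.5 CPM at day 3, 14.1, 21.5 and 28.4 CPM at day 7, and 18.3, 25.4 and 17.9 CPM at day 14. It overlapped sham on every day and had the smallest day 3 log2 difference of the 10 genes, 0.54 with a 95% interval from -0.08 to 1.16 (edgeR adjusted p = 0.188). Per length, Tap2 exceeded Tap1 in sham, with 6.14 ± 1.77 against 2.33 ± 0.897 FPKM (SD, n = 3). At day 3 the levels were 9.13 ± 1.45 and 6.78 ± 2.30 FPKM. The difference in response between the 2 genes was not tested.

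Tapbp encodes tapasin, which holds empty class I molecules at the transporter. It had 1.87, 4.25 and 3.47 CPM in sham, 7.85, 6.67 and 9.94 CPM at day 3, 2.36, 5.73 and 11.4 CPM at day 7, and 4.77, 9.96 and 3.63 CPM at day 14. Day 3 lay above sham, and days 7 and 14 each had 1 library inside the sham range. The log2 difference at day 3 was 1.33 (edgeR adjusted p = 0.124). At day 7 it was 0.98, and 0.28 without SCI day 7 replicate 3, and at day 14 it was 0.91, and 0.35 without SCI day 14 replicate 2. In the table, Tapbp lies wholly within the model of Rgl2 on the same strand, sharing 9245 bases, with 5179 counts over all libraries against 71259 for Rgl2, so its level is uncertain. Rgl2 gave a day 3 log2 difference of 0.33 (edgeR adjusted p = 0.131).

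B2m, on chromosome 3, encodes the small subunit common to all class I molecules and was the most abundant of the 10 genes, at 128 ± 18.2 FPKM in sham (SD, n = 3). It had 219, 291 and 265 CPM in sham, 575, 355 and 501 CPM at day 3, 387, 566 and 438 CPM at day 7, and 302, 769.9 and 336 CPM at day 14. All 9 SCI libraries were above the highest sham library, and SCI day 14 replicate 2 was the highest of all. The log2 differences were 0.85, 0.80 and 0.83 at days 3, 7 and 14, and none passed (edgeR adjusted p = 0.112, 0.485 and 0.641). Without SCI day 14 replicate 2 the day 14 value of B2m was 0.25.

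Nlrc5, on chromosome 19, encodes the transactivator that drives class I genes. It was the lowest of the 10 genes per length, at 0.467 ± 0.155 FPKM in sham (SD, n = 3). The sham libraries had 2.37, 4.62 and 3.32 CPM, those of day 3 had 10.3, 6.67 and 12.2 CPM, those of day 7 had 3.71, 8.11 and 14.4 CPM, and those of day 14 had 5.18, 7.79 and 3.36 CPM. Day 3 stood clear of sham, and days 7 and 14 each had 1 library within the sham range. The log2 difference was 1.48 at day 3, 1.30 at day 7 and 0.64 at day 14 (edgeR adjusted p = 0.0772, 0.421 and 0.874).

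Counted together, 3 of the 10 genes (Psmb8, Psme1 and Psme2) were higher at day 3 at an edgeR adjusted p under 0.05, where 5.5% of all genes tested were higher by the same rule and 6.7% changed in either direction. All 10 log2 differences were above 0, with a median of 1.24 against 0.03 over all genes. In 9 of the 10, all but Tap2, the lowest day 3 library exceeded the highest sham library, as it did for 21.2% of all genes. At an unadjusted p under 0.05, 9 of the 10 were higher, against 20.6% of genes. DESeq2 called 7 of the 10 (background 17.5%) and limma voom with sample weights called 8 (background 17.7%). The 3 edgeR calls depended on single libraries. Without SCI day 3 replicate 2, the library whose neuron markers were in the sham range, 8 genes were called, where 19.2% of all genes were higher. Psmb8 alone was called without sham replicate 2 (background 2.22%), without SCI day 14 replicate 1 or without SCI day 14 replicate 2. Genes called in all in these fits were 524, 557 and 647. Without SCI day 7 replicate 1 or 3 the count was again 3, with Psmb10 in place of Psme1 beside Psmb8 and Psme2. There 749 and 729 genes were called in all. None was called without SCI day 3 replicate 1 or 3, sham replicate 1 or 3, SCI day 7 replicate 2 or SCI day 14 replicate 3. In those fits only 1 to 18 genes were called in all, so a count of 0 says little about the 10 genes. With SCI day 3 replicates 1 and 3 both left out, which leaves 1 day 3 library, the log2 differences were 1.47 for Psmb8, 0.71 for Psme1 and 0.66 for Psme2.

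At day 7 none of the 10 genes was called by edgeR, where 0.016% of all genes were higher by that rule. At an unadjusted p under 0.05, 8 were higher (background 7.76%). DESeq2 called 3, Psmb8, Psmb10 and Psme1 (background 2.41%), and voom called 2, Psmb8 and Psme1 (background 1.39%). The median log2 difference was 1.003 against -0.02 over all genes, and 4 genes (Psmb8, Psmb10, Psme1 and B2m) did not overlap sham, as was so for 13.9% of genes.

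At day 14 edgeR again called none of the 10 (background 0.016%), with 3 higher at an unadjusted p under 0.05 (background 6.43%). DESeq2 called 0 (background 0.995%) and voom called 0 (background 0.0481%). The median log2 difference was 0.73 against 0.01 over all genes, and 5 genes (Psmb8, Psmb9, Psmb10, Tap1 and B2m) did not overlap sham, against 11% of genes. For Psmb9 this rests on 2.94 CPM in SCI day 14 replicate 3 against 2.92 CPM in sham replicate 2, too close to count as a separation. With all 9 SCI libraries taken as 1 group and each day weighted equally, edgeR called 0 of the 10 (background 0.0481%), with 9 higher at an unadjusted p under 0.05 (background 13%), 6 called by DESeq2 (background 6.64%) and 8 by voom (background 14.7%). Psmb8, Psmb10 and B2m were the 3 genes with every SCI library above every sham library, which held for 4.37% of all genes. The comparisons with sham share the same 3 sham libraries, so their directions are not independent of each other.

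**Figure D3:**
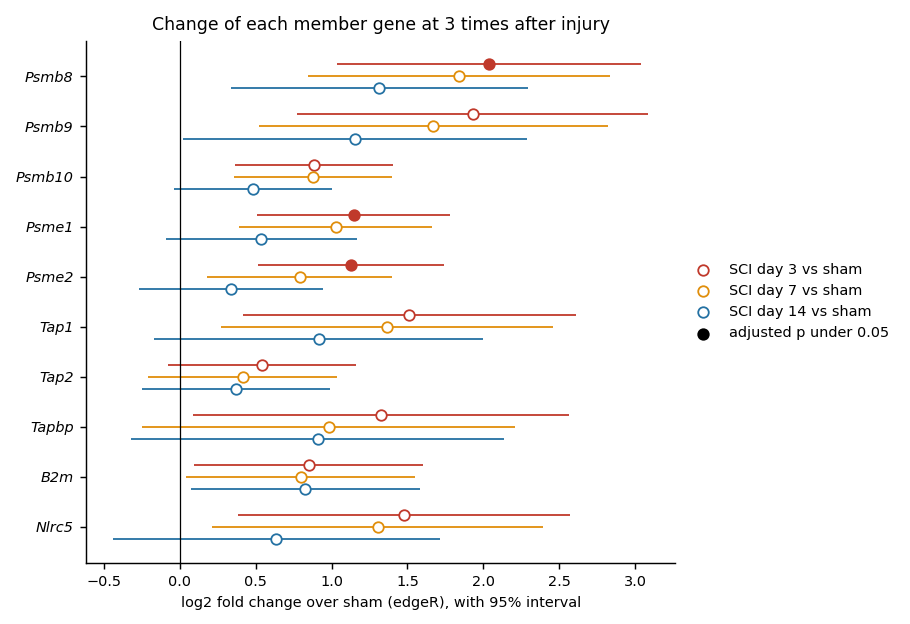
edgeR log2 fold change over sham (horizontal axis) of the 10 genes at days 3, 7 and 14, with 95% intervals as lines and filled points where the adjusted p was under 0.05. Every point lies to the right of 0, and the 3 filled points are Psmb8, Psme1 and Psme2 at day 3.

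Between the days after SCI, none of the 10 genes was called by edgeR in any of the 3 comparisons, in which 0% of all genes were called. The median log2 difference of the 10 genes was -0.16 from day 3 to day 7, -0.45 from day 7 to day 14 and -0.60 from day 3 to day 14. At an unadjusted p under 0.05 the counts were 0, 0 and 1 of the 10, against 14.8%, 3.67% and 17.9% of all genes. DESeq2 called none of the 10 (background 1.15%, 0.254% and 6.4%), nor did voom (background 0.00534%, 0% and 0%). At day 14 Psmb10 and Psme2 lay wholly below their day 3 libraries, 2 of the 10 genes against 9.62% of all genes. No other gene of the 10 separated in this way between days, where 7.76% (days 7 and 3) and 4.26% (days 14 and 7) of all genes did. The 1 gene with an unadjusted p under 0.05 was Psme2, lower at day 14 than at day 3 by -0.79 on the log2 scale, with a 95% interval from -1.40 to -0.18 (edgeR adjusted p = 0.215). The interval for Psmb8 between the same days reached from -1.69 to 0.24, so a 3-fold decline was not distinguishable from none at this spread. For B2m the difference was -0.02, from -0.77 to 0.73.

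The 10 genes tended to be high or low in the same libraries. Averaged over the 10 genes as log2 CPM from the sham mean, the sham libraries stood at -0.42, 0.42 and 0.00. The day 3 libraries stood at 1.49, 0.88 and 1.497, the day 7 libraries at 0.36, 1.15 and 1.61, and the day 14 libraries at 0.49, 1.26 and 0.42. SCI day 7 replicate 1 and SCI day 14 replicates 1 and 3 were thus near sham replicate 2, and SCI day 7 replicate 3 was the highest library. The number of genes above the highest sham library was 10, 9 and 10 in the day 3 libraries, 4, 10 and 10 at day 7, and 8, 10 and 6 at day 14. The map of log2 CPM by library shows the same pattern across columns.

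**Figure D4:**
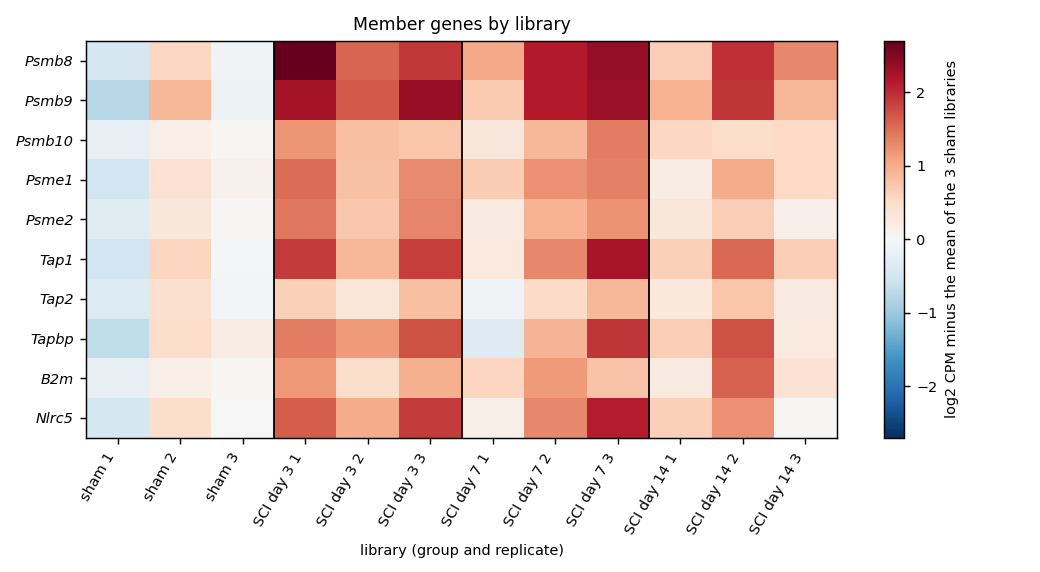
Log2 CPM minus the mean of the 3 sham libraries (colour, red higher and blue lower) for the 10 genes (vertical axis) in the 12 libraries (horizontal axis, group and replicate). Whole columns move together: sham replicate 1 is blue throughout, and SCI day 3 replicates 1 and 3, SCI day 7 replicate 3 and SCI day 14 replicate 2 are red for nearly all genes.

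Over the 12 libraries the 45 pairs among the 10 genes had a median Pearson r of 0.90 in log2 CPM, from 0.62 between Psmb10 and B2m to 0.97. Within groups, after each group mean was taken away, the median was 0.85, with a range from 0.18 to 0.97. Tap1 followed the mean of the other 9 genes most closely (r = 0.98) and B2m least (r = 0.81). These values are descriptions, since all genes share the same libraries and their scaling. The 8 genes outside the list whose log2 CPM was most like the mean of the 10, among 11819 genes compared, were Ikzf4 (r = 0.96), Dtx3l (0.96), Casp4 (0.96), A3galt2 (0.96), Chsy1 (0.96), Gadd45g (0.96), an entry named Rps19 (0.96) and Gbp2 (0.96). Gbp2 encodes an interferon-induced GTPase, Casp4 an inflammatory caspase and Dtx3l a ubiquitin ligase. Since these genes were chosen for following the mean of the 10, their own differences over sham are not given as results.

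Markers of several cell types differed between these libraries too. The summed level of 10 microglia and macrophage markers was 208 to 280 CPM in sham, 1367, 322 and 390 CPM at day 3, 976, 1550 and 864 CPM at day 7, and 286, 1351 and 1347 CPM at day 14, with none of the 10 at 0 in any library. Their order did not follow that of the 10 genes in every library. SCI day 14 replicate 3 had 1347 CPM of these markers while only 6 of the 10 genes exceeded sham, and SCI day 3 replicate 3 had 390 CPM while all 10 did. T and NK cell markers, 9 of 12 in the table, summed to 1.92 to 4.17 CPM in sham, 4.42 to 29.6 CPM at day 3, 2.56 to 22.1 CPM at day 7 and 2.87 to 10.98 CPM at day 14. Cd8a alone gave 22.6 of the 29.6 CPM, in SCI day 3 replicate 1, and 15.4 of the 22.1 CPM, in SCI day 7 replicate 2, while Cd3e had means of 0.246, 0.290, 0.300 and 0.352 CPM in sham and at days 3, 7 and 14. Cd3d was at 0 in all day 3 and day 7 libraries, and Cd3e, Cd3g, Cd8b, Nkg7, Klrd1 and Prf1 were each at 0 in at least 1 library. Endothelial markers, 5 of 6 in the table, summed to 157 to 201 CPM in sham, 290 to 667 CPM at day 3, 255 to 348 CPM at day 7 and 226 to 236 CPM at day 14, clear of sham on each day. At day 3, 4 of the 5 were called higher by edgeR, namely Pecam1, Flt1, Tek and Esam, where 5.5% of all genes were. In each of these 4, SCI day 3 replicate 2 was the lowest day 3 library, as for Pecam1 with 199, 37.6 and 127 CPM. The marker calls are not given without SCI day 3 replicates 1 and 3. Astrocyte markers summed to 2651 to 4825 CPM in sham and 1763 to 5671 CPM at day 3. Their sums were 8815 to 11240 CPM at day 7, clear of sham, and 2880 to 7125 CPM at day 14. The day 7 sums were mostly Gfap, with 7354, 8739 and 7103 CPM in replicates 1 to 3. Of the 6 astrocyte markers, 3 had a day 7 log2 difference above 0, with a median of 0.095. Gfap alone gave 4898 of the 5671 CPM, in SCI day 3 replicate 1. At day 3, 3 of 6 astrocyte markers, Aqp4, Aldh1l1 and Gja1, were called lower, as was Cnp, 1 of 6 oligodendrocyte markers. Of all genes, 6.7% changed in either direction, most of them higher (5.5% of all genes). Neutrophil markers, 5 of 6 in the table, summed to 2.14, 46.3 and 1.84 CPM in sham and to 20.4 to 66.3 CPM at day 3. Their sums were 6.66 to 10.6 CPM at day 7 and 3.02 to 22.8 CPM at day 14, within the sham range. Sham replicate 2, the highest sham library for the 10 genes, was also the highest sham library in neutrophil markers and in B cell markers (10.8 CPM against 0.798 and 0.898). The part of these cells in the levels of the 10 genes was not tested.

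Few other proteasome genes were called. Of 16 other core subunits and assembly factors, none rose and 1 fell at day 3, where 6.7% of all genes changed in either direction. This was Psmg3, an assembly chaperone, with a change of -1.04 ± 0.212 on the log2 scale (SE; edgeR adjusted p = 0.0358). Psmg3 had 17.7, 14.4 and 15.2 CPM in sham and 8.55, 8.94 and 6.26 CPM at day 3, with no overlap. Without SCI day 3 replicates 1 and 3 its log2 difference was -0.87 (edgeR adjusted p = 0.889). The median of those 16 genes was 0.31. Of 18 subunits of the regulatory particle that recognises ubiquitin, none was called on any day, and their median log2 differences were 0.12, 0.01 and -0.12. Their day 3 values included 0.46 for Psmd11, 0.31 for Psmd8, -0.25 for Psmd6 and -0.69 for Psmc5.

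Among the partners of class I loading, 1 of 8 chaperones and trimming enzymes rose at day 3, where 5.5% of all genes did. This was Erap1, the aminopeptidase that trims peptides in the endoplasmic reticulum, with 29.7, 34.8 and 31.5 CPM in sham and 80.5, 43.9 and 85.5 CPM at day 3. The groups did not overlap, and the log2 fold change was 1.10 ± 0.271 (SE; edgeR adjusted p = 0.0436). Without SCI day 3 replicates 1 and 3, the higher of the day 3 libraries, it was 0.41 (edgeR adjusted p = 0.919). The median of the 8 was 0.67 at day 3, 0.34 at day 7 and 0.18 at day 14. Of 30 symbols of class I heavy chains and class I-like molecules, 18 were in the table and 16 were tested. None of the 16 was called on any day, and their medians were 0.42, 0.21 and 0.32. At day 3 the log2 difference was 1.02 for RT1-CE1, 0.87 for RT1-S3, 1.05 for Cd1d1 and -0.64 for RT1-N2. Rat RT1 genes have near-identical copies, and the sources do not say how a read matching more than 1 of them was treated, so their values are uncertain. Of 8 genes of the class II pathway, which presents peptides from outside the cell, none was called on any day. Their median log2 differences were 0.62, 0.98 and 1.58, with day 3 values of 2.22 for RT1-DMb, 2.08 for RT1-DMa, 1.24 for the transactivator Ciita and 0.61 for RT1-Da. SCI day 3 replicate 1 had 110 CPM of RT1-DMb and 104 CPM of RT1-DMa. In SCI day 3 replicates 2 and 3 the levels were 20.3 and 24.8 CPM for RT1-DMb and 25.4 and 20.2 CPM for RT1-DMa. The day 14 median was 0.04 without SCI day 14 replicate 2, in which RT1-Da had 64.2 CPM against 8.47 and 8.86 CPM in the other day 14 libraries.

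Upstream of these genes, 2 of 14 interferon receptors and signal transducers rose at day 3, beside 5.5% of all genes. Jak2, a kinase of the interferon gamma receptor, had a log2 fold change of 1.35 ± 0.339 (SE; edgeR adjusted p = 0.0449), and Irf2, an interferon regulatory factor, had 0.60 ± 0.153 (SE; edgeR adjusted p = 0.0471). Without SCI day 3 replicates 1 and 3 the values were 0.86 for Jak2 and 0.35 for Irf2 (edgeR adjusted p = 0.900 and 0.919). Irf1, the interferon regulatory factor known to activate Psmb9 and Tap1, had 6.32, 8.55 and 7.69 CPM in sham, 20.8, 13.4 and 26.5 CPM at day 3, 8.12, 13.8 and 39.2 CPM at day 7, and 11.7, 17.4 and 11.03 CPM at day 14. Days 3 and 14 lay above sham, and the log2 differences of Irf1 were 1.40, 1.39 and 0.79 (edgeR adjusted p = 0.0881, 0.395 and 0.819). The interferon genes themselves were near the limit of detection. Ifng had 0 counts in 11 libraries and 3 counts in SCI day 7 replicate 3, where 3 counts, the upper limit that a count of 0 allows, correspond to between 0.0379 and 0.0476 CPM. Ifnb1 had 14 counts in all, in 5 libraries. Neither could be tested.

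Of 19 interferon-induced genes outside antigen processing, 1 rose at day 3, a share like the 5.5% of all genes. This was Ifitm3, an antiviral membrane protein, with 8.11, 23.4 and 10.4 CPM in sham and 78.5, 79.9 and 155 CPM at day 3. The log2 fold change was 2.90 ± 0.557 (SE; edgeR adjusted p = 0.0338), and 2.48 without SCI day 3 replicates 1 and 3 (edgeR adjusted p = 0.735). With each of the 12 libraries left out in turn, Ifitm3 and Psmg3 were called in 6 fits each, Jak2 in 3, and Erap1 and Irf2 in 1 each. The medians of the 19 were 1.13, 0.71 and 0.62 at days 3, 7 and 14, beside 1.24, 1.003 and 0.73 for the 10 genes of class I processing and 0.03, -0.02 and 0.01 for all genes.

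**Figure D5:**
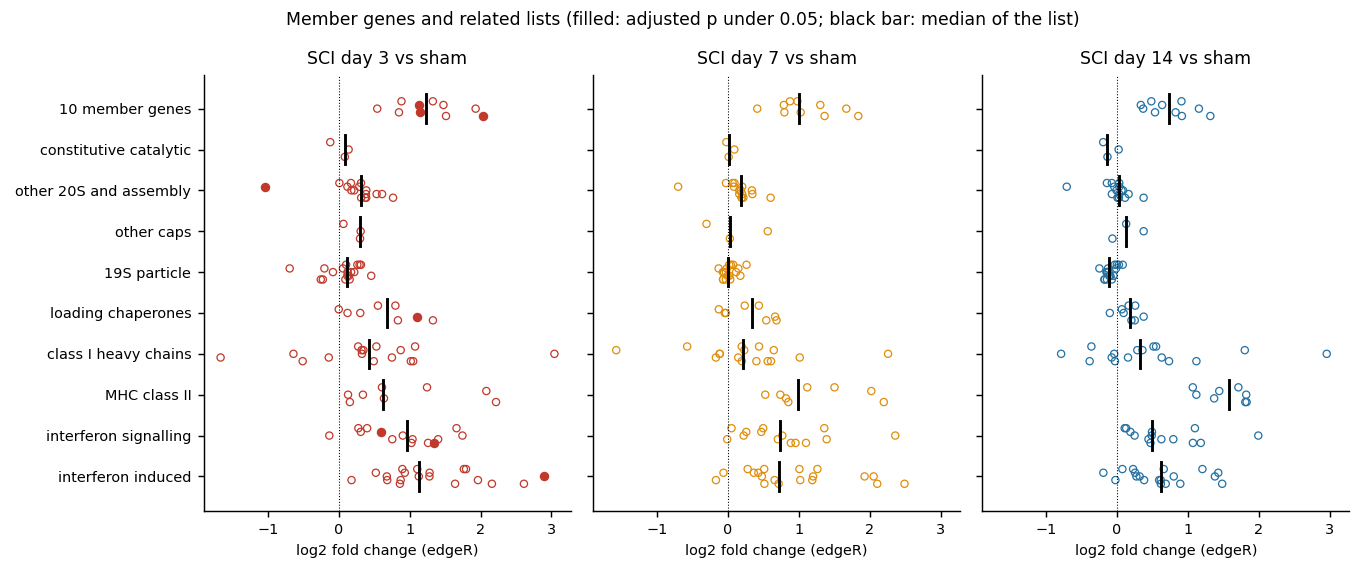
edgeR log2 fold change over sham (horizontal axes) of each gene in the list of 10 and in 9 related lists (vertical axis) at days 3, 7 and 14, with filled points where the adjusted p was under 0.05 and a black bar for the median of each list. The constitutive catalytic subunits and the regulatory particle sit near 0, and the filled points are all at day 3.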

How the data were processed

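RNA was extracted as total RNA and sequenced with a SMARTer mRNA-Seq kit, per the labels' protocols. The deposited table holds raw read counts per gene, not normalised by the authors, per the file headers. It also holds the authors' FPKM values, scaled by gene model length and library total, per the file headers. The aligner, the counting tool, strand use and the handling of multiply matching reads were not given in the sources used here. The submitters' processing notes list the mouse builds GRCm38 and mm10, yet identifiers in the table are Ensembl's for rat, so no coordinates of the table are printed.

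CPM are counts divided by the library total in units of 1000000. Of 23526 genes, filterByExpr by group kept 18714 and removed 4812. Counts were fitted with TMM factors, 1 mean per group and all 12 libraries (8 residual degrees of freedom, common biological coefficient of variation 0.432) by edgeR 4.0.16 quasi-likelihood tests in R 4.3.3, in 7 comparisons. P-values were adjusted by Benjamini-Hochberg over all genes tested, with a limit of 0.05. The SE is derived from the test itself (log2 fold change over the root of F). Ratios used an exact permutation test over libraries. The fits were tested on simulated data. Alternatives were DESeq2 1.42.0, voom with sample weights in limma 3.58.1, other scaling and filters, a replicate block, only the groups compared, and libraries left out.

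The 10 genes and all lists were chosen with earlier results of these data known, and the motifs after the promoter letters were seen. Named are the 10 genes, Psmb5, Psmb6, Psmb7, Irf1 and Ifng, list members called against sham (otherwise up to 4 with the smallest p over all SCI libraries), and the 8 genes correlating best with the mean of the 10 over the 12 libraries, at a mean of at least 5 CPM. Cell type marker lists are given as summed levels and by the genes called, and not every gene within the rule is reported here. Rgl2, Nek6, Ifnb1, Cd8a, Cd3d and Cd3e were named after their values were seen. Leaving out SCI day 3 replicates 1 and 3 together for the ratios, the alternatives for list genes and those for class II genes at day 14 were chosen after seeing the data.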

Additional observations from a re-analysis of the deposited data

How the results depend on the processing

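The direction over sham held for all 10 genes at days 3 and 7 and over all SCI libraries under every setting run, and reversed once at day 14, for Nlrc5 (-0.11 without SCI day 14 replicates 1 and 2). Calls were less stable than directions, and the cause was not tested. At day 3, against 3 of the 10 genes and 1254 genes in all, the counts were 7 and 5105 with DESeq2, 8 and 6232 with voom, 1 and 733 without a filter, 0 and 1 with only the groups compared, 0 and 1 without SCI day 3 replicates 1 and 3, and 0 and 9 without SCI day 14 replicates 1 and 2. A filter of 1 CPM gave 5 of the 10. Against 3 genes in all at day 7 there were 502 with DESeq2, 276 with voom and 89 with only the groups compared, and against 3 at day 14 there were 206, 9 and 0, and 1 without SCI day 3 replicates 1 and 3. Over all SCI libraries, against 0 of the 10 and 9 genes in all, DESeq2 gave 6 and 1478, voom 8 and 5716, and leaving out SCI day 14 replicates 1 and 2 gave 0 and 4. Against 0 between days, DESeq2 called 227 (days 7 and 3), 50 (days 14 and 7) and 1059 (days 14 and 3), voom 1, 0 and 0, and leaving out SCI day 14 replicates 1 and 2 gave 1, 1 and 2.
Leaving out 1 library in turn gave 0 to 8 of the 10 genes and 1 to 7087 genes in all at day 3, 0 of the 10 and 1 to 7 genes at day 7, 0 of the 10 and 1 to 3 genes at day 14, and 0 to 5 of the 10 and 1 to 3341 genes over all SCI libraries. Between days it gave 0 to 3605 genes (days 7 and 3), 0 (days 14 and 7) and 0 to 4342 (days 14 and 3), with 0, 0 and 0 to 1 of the 10. Each upper value above 7 was reached without SCI day 3 replicate 2. The log2 differences of the ratios ranged from 1.58 to 1.94 (Psmb8), 1.36 to 1.94 (Psmb9) and 0.77 to 0.92 (Psmb10), and without SCI day 3 replicates 1 and 3 that of Psmb9 was 1.38 (adjusted exact p = 0.05).
Replicate numbers did not pair the libraries: same-numbered libraries correlated from -0.34 to 0.25, and 3 of 12 correlated best with their own number. With the replicate block the counts were 0 of the 10 genes and 8 genes in all at day 3, 1 gene at day 7, 1 at day 14, 5 over all SCI libraries and 1 between days 7 and 3. Where 2 libraries of a day were left out, the lone library was assumed to vary like the other groups, and 3 libraries per group limit the precision throughout.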
